A study of Mus musculus with 6 samples.

Results

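The Asb, F-box and Kelch ubiquitin ligase adaptors were examined in the neonatal mouse heart with and without activation of human SRY. They comprised the array probes whose gene symbol begins with Asb, Fbx, Fbxl, Fbxo, Fbxw, Klhl, Kbtbd or Socs followed by a digit, without Fbxo32. The rule took 175 of 25697 probes, which belong to 114 of 18138 gene symbols. It works on symbols and uses no measured value, but it was chosen with earlier results of these data known. Within them, 16 probes of 13 genes formed a list of adaptors known for expression restricted to striated muscle, such as Asb10, and 159 probes of 101 genes formed the rest.

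Cullin-RING ligases attach ubiquitin to proteins, and their interchangeable adaptors choose which protein is marked. F-box proteins bind the linker Skp1 on the cullin Cul1, BTB-Kelch proteins (Klhl and Kbtbd) bind the cullin Cul3 directly, and Asb and Socs proteins carry a SOCS box that binds elongins B and C on the cullin Cul5. In heart and skeletal muscle several of these adaptors act on sarcomere proteins, on insulin signalling or on the breakdown of muscle protein.

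The RNA came from hearts of 3 hSRY-ON and 3 hSRY-OFF male pups labelled FVB (FVB/N in the methods) at postnatal day 6, and each heart was hybridized to its own Illumina MouseRef-8 array. All hSRY-ON pups carried 1 recombined copy of the Signalox-hSRY transgene at the H11 locus. In it the ubiquitous CAG promoter drives FLAG-tagged human SRY together with EGFP, once Cre from the Ddx4-Cre mother has removed a DsRed2 cassette in the early embryo. The hSRY-ON pups chosen for the arrays lacked the Ddx4-Cre transgene themselves. For the controls the sources differ, because hSRY-OFF is defined in the methods by an unrecombined Signalox-hSRY cassette but control littermates are elsewhere said to bear Ddx4-Cre alone or no transgene. Which of these genotypes the 3 control hearts had is unsettled. The model is 1 insertion line, and its promoter is active in tissues besides the heart. A whole heart holds many cell types, and fewer cells of a type cannot be told apart from less RNA per cell. The study describes hSRY-ON pups as suckling little, and as growth retarded with some already dead at the age sampled. It also reports white patches and dying cells in selected hSRY-ON hearts. Whether the array hearts had such patches is not given. Poor feeding, delayed growth and early deaths thus go with the hSRY-ON group, and their part in the differences below was not tested.

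Between 12138 and 12925 probes were detected above background on the hSRY-OFF arrays and between 12704 and 13172 on the hSRY-ON arrays. Correlations of normalized values were 0.983 to 0.992 within hSRY-OFF, 0.985 to 0.988 within hSRY-ON and 0.940 to 0.960 between the groups. All 11 cardiomyocyte markers with a probe were tested, and Myh6, Myl2 and Myl3 stood at 14.4 or more in every heart. In hSRY-ON replicate 1 the lung secretory gene Scgb1a1 stood at 13.74, whereas the other 5 hearts lay between 4.53 and 6.52. Of the alveolar genes, Sftpa1 was detected on no array, Sftpc on 1 hSRY-ON array, Sftpb on 1 hSRY-OFF and 3 hSRY-ON arrays and Ager on all 6, and neither Sftpb (0.67) nor Ager (0.52) passed the test. Values without that heart are given beside the main counts.

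The promoters of the muscle-restricted adaptors that moved most are shown first, because the comparison below turns on these genes. RefSeq windows (build GRCm38.p6, 250 bases before to 50 bases after an annotated start, 300 bases in all) were at hand for 91 of the 114 genes. They covered 7 of the 9 muscle-restricted genes that could be tested, with 9 windows, and not Klhl30 and Klhl38. Capitals mark a match to the MEF2 site, the CArG box bound by serum response factor, or AACAAT, the core bound by SRY and SOX proteins, on either strand. The motifs were chosen after the expression values were known. The windows lie on the minus strand at chr5:24540929-24541228 for Asb10, chrX:95478080-95478379 for Asb12, chr12:103355952-103356251 and chr12:103338341-103338640 for the upstream and downstream start of Asb2, chr9:66514544-66514843 for Fbxl22 and chr16:36990418-36990717 for the upstream start of Fbxo40.
Asb10: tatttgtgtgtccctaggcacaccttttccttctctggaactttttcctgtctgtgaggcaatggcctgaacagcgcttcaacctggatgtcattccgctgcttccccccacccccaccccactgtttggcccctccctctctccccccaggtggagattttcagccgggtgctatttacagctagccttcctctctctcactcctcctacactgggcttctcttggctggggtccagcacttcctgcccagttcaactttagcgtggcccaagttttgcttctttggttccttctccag
Asb12: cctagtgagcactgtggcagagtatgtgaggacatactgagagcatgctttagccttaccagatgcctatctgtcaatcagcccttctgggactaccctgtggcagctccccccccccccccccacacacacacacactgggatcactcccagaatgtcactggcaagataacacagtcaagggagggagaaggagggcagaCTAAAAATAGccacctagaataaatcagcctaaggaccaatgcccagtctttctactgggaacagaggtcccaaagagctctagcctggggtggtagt
Asb2 upstream: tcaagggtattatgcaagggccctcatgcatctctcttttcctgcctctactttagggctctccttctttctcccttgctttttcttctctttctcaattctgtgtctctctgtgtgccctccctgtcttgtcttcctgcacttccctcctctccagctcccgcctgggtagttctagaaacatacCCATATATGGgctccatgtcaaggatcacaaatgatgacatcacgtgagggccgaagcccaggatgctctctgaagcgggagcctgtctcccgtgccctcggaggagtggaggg
Asb2 downstream: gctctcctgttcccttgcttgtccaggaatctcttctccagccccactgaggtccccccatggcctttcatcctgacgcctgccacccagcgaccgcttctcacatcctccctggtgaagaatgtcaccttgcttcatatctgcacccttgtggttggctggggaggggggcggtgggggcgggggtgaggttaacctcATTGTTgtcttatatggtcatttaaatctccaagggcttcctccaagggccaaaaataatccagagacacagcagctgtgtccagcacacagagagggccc
Fbxl22: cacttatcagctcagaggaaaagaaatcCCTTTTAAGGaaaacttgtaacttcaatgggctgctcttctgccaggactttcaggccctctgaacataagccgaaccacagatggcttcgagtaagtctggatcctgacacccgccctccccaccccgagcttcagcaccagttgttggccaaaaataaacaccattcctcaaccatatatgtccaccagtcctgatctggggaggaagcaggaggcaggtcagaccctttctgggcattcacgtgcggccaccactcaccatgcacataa
Fbxo40: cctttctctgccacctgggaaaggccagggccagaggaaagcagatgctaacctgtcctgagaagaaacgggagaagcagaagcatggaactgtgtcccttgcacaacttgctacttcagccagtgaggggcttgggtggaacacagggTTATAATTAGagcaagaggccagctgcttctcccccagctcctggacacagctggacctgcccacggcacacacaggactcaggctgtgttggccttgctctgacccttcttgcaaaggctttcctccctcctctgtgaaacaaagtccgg
The Asb12 match was a MEF2 site 48 bases before the start and the Fbxo40 match another, 101 bases before it. The Asb2 upstream window held a CArG box 64 bases before its start, and the Fbxl22 window held one 222 bases before its start. The AACAAT match lay 51 bases before the downstream Asb2 start, on the reverse strand. Asb10, which had the steepest fall of all adaptors, had none of these 3 motifs in its window. The windows of Asb11, Klhl31 and the downstream start of Fbxo40, which are not printed, also had none.

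Over the 9 windows, a MEF2 site was in 2 (22.2%), against 3.2% of 32841 mouse windows of the same length and 0 of 75 windows of the other tested adaptors. A CArG box was likewise in 2 of 9, against 1.6% of all windows and 0 of those 75. AACAAT was in 1 of 9 (11.1%), against 10.7% of all windows and 5 of 75 (6.7%). The E-box CANNTG, bound by myogenic and other helix-loop-helix factors, was in 8 of 9, against 72.3% of all windows and 42 of 75 (56.0%). Muscle-restricted genes that were not tested lie outside these shares, and their windows held such motifs too. A MEF2 site was in the windows of Asb16 and Asb18 and in 1 window of Asb5. Another Asb5 window held a CArG box, the remaining one held neither, and the Asb15 window held AACAAT. The motifs were thus not limited to the genes that fell. With 9 windows these shares are a description, and a match is not shown to be an occupied site.

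Muscle-restricted adaptors were lower in the hSRY-ON hearts. All 11 tested probes, from 9 genes, had a negative log2 fold change (hSRY-ON minus hSRY-OFF), and 7 of them passed the test while none rose. Their median log2 fold change was -0.95, against -0.03 for the 91 tested probes of the other adaptors and -0.0046 for all 12970 tested probes. Only probes detected (p under 0.05 against negative-control beads) by 3 or more of the 6 arrays were tested, and a limma adjusted p under 0.05 was called a change. By that rule 63.6% of the muscle-restricted probes were called, against 27.5% of all tested probes (13.8% higher and 13.7% lower in hSRY-ON). Called decreases of at least 2-fold were found for 5 of the 11 probes, against 4.52% of all tested probes. The list was drawn up with results of these arrays known, so that its counts are no independent evidence of a direction.

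Asb10, an ankyrin-repeat SOCS-box protein most abundant in heart and skeletal muscle, changed most. Its normalized log2 intensity was 9.20, 9.42 and 9.02 in the 3 hSRY-OFF hearts and 5.02, 5.51 and 5.21 in the 3 hSRY-ON hearts. The groups lay far apart, and only 1 of the 3 hSRY-ON arrays detected the probe at all. The log2 fold change was -3.97 ± 0.17 (SE), a 15.6-fold difference with a limma adjusted p of 2.7e-05. The hSRY-ON mean of 5.25 is below the lowest detected signal of each array (5.28 to 5.56), so that the size of the fold depends on how background is treated, and without background correction the log2 fold change was -2.08. The same setting moved Asb12 to -1.07, Fbxl22 to -1.09 and Fbxo40 to -0.61, and all 4 kept the call.

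Asb12, a close relative whose substrates are little known, read 8.01, 8.28 and 8.59 in hSRY-OFF and 6.34, 5.90 and 6.55 in hSRY-ON hearts. Every hSRY-ON heart was below every hSRY-OFF heart, and the log2 fold change was -2.03 ± 0.21 (SE, limma adjusted p = 0.00075). Asb2, whose muscle isoform directs the breakdown of filamins, read 13.22, 13.14 and 13.31 against 12.28, 12.11 and 12.23. The groups again did not overlap, and the decrease was 2.02-fold with SDs of 0.084 and 0.091 (n = 3 each, limma adjusted p = 0.0011). Whether the MEF2 site in the Asb12 window or the CArG box in the upstream Asb2 window has a part in these decreases was not tested.

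Asb11 did not pass the test. It read 6.29, 6.05 and 5.43 in hSRY-OFF and 4.63, 5.57 and 4.74 in hSRY-ON hearts, with detection on 2 and 1 arrays, and its log2 fold change of -0.94 had a limma adjusted p of 0.054. hSRY-ON replicate 2 lay above hSRY-OFF replicate 3, so that the groups overlapped. Asb5, Asb15 and Asb18 were detected on no array and Asb16 on 1 hSRY-OFF array, and these 4 genes were not tested.

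Both muscle F-box genes fell. Fbxl22, which targets Z-disc proteins of the cardiac sarcomere, read 8.38, 8.61 and 8.80 in hSRY-OFF and 6.94, 6.24 and 7.03 in hSRY-ON hearts. The groups were separate, at 3.63-fold (log2 fold change -1.86 ± 0.23 SE, limma adjusted p = 0.0013). Fbxo40, which directs the breakdown of the insulin receptor substrate Irs1 in muscle, read 7.12, 7.23 and 7.32 against 5.41, 5.33 and 6.18 on its brightest probe. The hSRY-ON hearts were all lower but uneven, with replicate 3 the highest, and the fold was 2.99 (limma adjusted p = 0.0025). A second Fbxo40 probe had a log2 fold change of -0.69 that did not pass (limma adjusted p = 0.060), and the third was detected on 2 hSRY-OFF arrays and was not tested.

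Among the muscle Kelch genes, Klhl31, which is needed for normal skeletal muscle structure, read 9.50, 9.28 and 9.24 in hSRY-OFF and 8.30, 8.34 and 8.54 in hSRY-ON hearts. The groups did not overlap, and the brightest probe fell 1.93-fold (limma adjusted p = 0.0022), while a dim second probe at -0.60 did not pass (limma adjusted p = 0.10). Klhl30 read 10.79, 10.62 and 10.61 against 9.95, 9.88 and 10.11, also without overlap, a 1.62-fold decrease (limma adjusted p = 0.0059). Klhl38 read 7.10, 7.76 and 7.53 against 6.45, 7.45 and 6.36. Its hSRY-ON replicate 2 fell within the hSRY-OFF range, and the log2 fold change of -0.71 did not pass (limma adjusted p = 0.13).

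**Figure D1:**
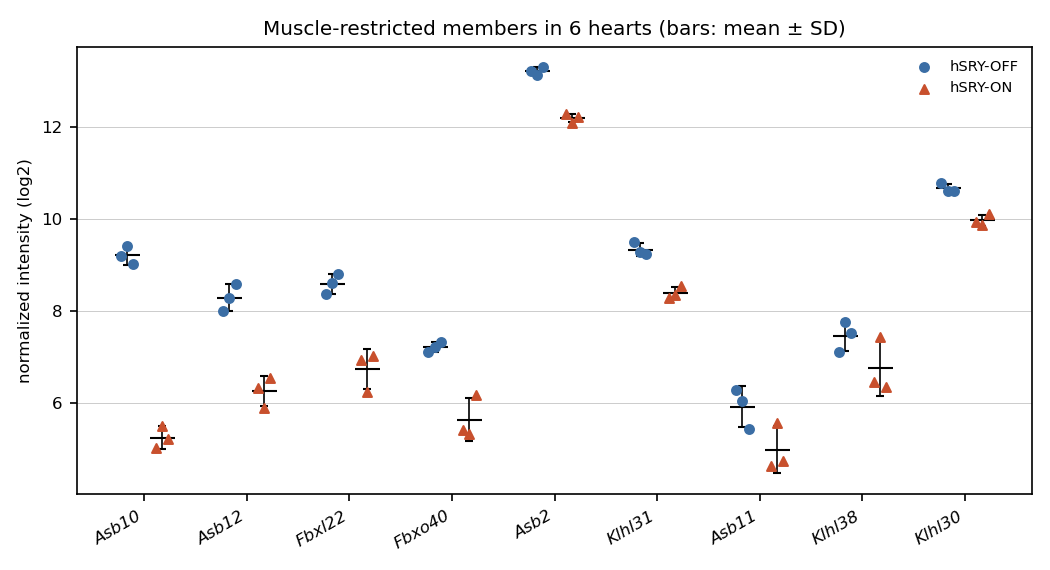
Normalized log2 intensity of the brightest probe of the 9 tested muscle-restricted adaptors in each heart (circles, 3 hSRY-OFF; triangles, 3 hSRY-ON; horizontal bar and whiskers, mean and SD). Genes run from the largest decrease, with Asb10 on the left; Asb11 and Klhl38 are the pair whose groups overlap.

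Averaged over the 9 muscle-restricted genes, the normalized log2 level was 8.85, 8.93 and 8.87 in the hSRY-OFF hearts and 7.26, 7.37 and 7.44 in the hSRY-ON hearts. The same average over the 67 other adaptor genes lay between 8.11 and 8.23 in all 6 hearts. No hSRY-ON heart reached the muscle-restricted average of a control, and that of the other adaptors was not separated by group.

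Cell type markers also differed between the groups, in both directions. Of 11 cardiomyocyte markers tested, 5 fell (Myh6, Tnni3, Ryr2, Pln and Mybpc3) and 1 rose (Nkx2-5), and their summed background-corrected intensity spanned 183187 to 197253 among controls and 160315 to 177132 in the hSRY-ON group. Of 13 skeletal muscle markers with a probe, Myh1, Myh2, Myh4, Tnnt3, Tnnc2 and Myod1 were on no array above background, 4 fell, 1 rose, and the sum was 642 to 758 against 424 to 446. The marker that rose, Actn3, was detected on hSRY-ON arrays alone and was at least 3.10-fold higher there. Pvalb, 1 of the 4 that fell, was detected on hSRY-OFF arrays alone and was at least 1.42-fold lower in hSRY-ON. Of 8 macrophage markers 5 rose and none fell, with sums of 2197 to 2447 against 4366 to 4855. Of 4 tested smooth muscle markers Tagln (1.81) and Acta2 (0.53) rose and Smtn fell by 1.47, with sums of 30411 to 37559 against 40638 to 44791. Of 7 endothelial markers 1 rose and 3 fell, with sums of 27660 to 29565 against 24582 to 27155. Of 4 tested adipocyte markers Ucp1 (3.67) and Adipoq (1.48) rose, although hSRY-OFF replicate 3 had Ucp1 at 8.88, within the hSRY-ON range, and the sums overlapped (1869 to 2618 against 1079 to 3630). The liver gene Ttr, detected in no hSRY-OFF heart, was at least 3.87-fold higher in hSRY-ON. Apoa1 was detected on 2 hSRY-ON arrays alone and was not tested, while Alb, Serpina1a and Fgb were on no array above background. Of 7 tested fibroblast markers Tcf21 alone was called, and it rose. Hbb-b1 alone was called of 5 tested erythroid markers and Cd3g alone of 2 tested lymphocyte markers, and both fell. The part of these markers in the muscle-restricted result was not tested. Without hSRY-ON replicate 1, the heart with Scgb1a1 signal, 7 of 11 muscle-restricted probes were called and their median was -0.90.

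Taking all adaptors as 1 set, 27 of 102 tested probes (26.5%) were called, 13 higher and 14 lower in hSRY-ON, against the 27.5% of all tested probes given above. The share was thus near the background. Fbxo2, 1 of the higher calls, was detected by hSRY-ON arrays alone. Groups did not overlap for 34 of the 102 probes, against 45.2% of all tested probes. Calls of at least 2-fold, which made up 9.41% of all tested probes, were 1 increase (Fbxo27) and 7 decreases. Of the 38 genes without a tested probe, 31 were detected on no array. Without any normalization between arrays the split became 2 higher and 12 lower, with the median of all probes at -0.12. Without hSRY-ON replicate 1 the count was 20, of which 8 were higher, and without hSRY-OFF replicate 1 it was 14, of which 4 were higher.

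**Figure D2:**
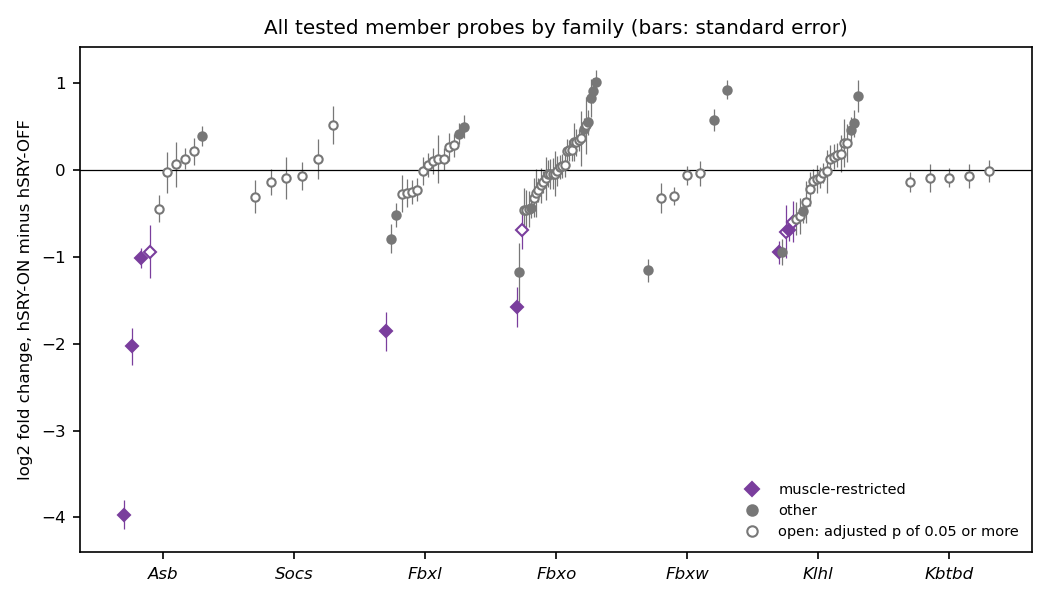
Log2 fold change (hSRY-ON minus hSRY-OFF) with its standard error for each of the 102 tested adaptor probes, by family. Purple diamonds are muscle-restricted and grey circles the other adaptors, filled where the adjusted p was under 0.05; the diamonds all lie below 0 and the circles spread to both sides.

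Outside the muscle-restricted list, 20 of 91 tested probes (22%) were called, against the 27.5% of all tested probes, 13 higher and 7 lower. The count was 7 without hSRY-OFF replicate 1 and 10 to 19 without any other heart, and the lower calls outnumbered the higher without hSRY-ON replicate 2 (5 higher, 7 lower) and without hSRY-OFF replicate 3 (9 and 10). With all hearts the split was 14 and 4 with scaling to the median of detected probes, and 2 and 4 without normalization between arrays. Among the F-box genes Fbxw7 fell, the adaptor that marks cyclin E, Myc, Jun and Notch for destruction. It read 9.54, 9.82 and 9.80 in hSRY-OFF and 8.47, 8.52 and 8.71 in hSRY-ON hearts. The groups were well apart, with a 2.23-fold difference (log2 fold change -1.16 ± 0.13 SE, limma adjusted p = 0.0011).

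Fbxo30, also called MUSA1 and known as a ligase of muscle atrophy, read 8.63, 8.56 and 8.33 against 7.75, 7.77 and 6.46. The hSRY-ON hearts were all lower, but hSRY-ON replicate 3 was far below the other two. The log2 fold change of -1.18 had a limma adjusted p of 0.037, which was lost on leaving out any 1 of the hSRY-OFF hearts, and without hSRY-ON replicate 3 it was -0.74 and remained called. Smaller decreases passed for Fbxl8 (-0.52), for Fbxo9 (-0.44) on the brighter of its probes, and for Fbxl12 on 1 of 4 probes (-0.79, the others -0.23 to -0.27).

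The increases among F-box genes were led by Fbxo27, a relative of the adaptors that recognise sugar chains on glycoproteins. Fbxo27 read 7.06, 6.84 and 6.76 in hSRY-OFF and 7.96, 7.99 and 7.74 in hSRY-ON hearts. The groups did not overlap, and the 2.02-fold increase had a limma adjusted p of 0.0018. Fbxo44, another such relative, read 7.91, 7.87 and 7.84 against 8.57, 9.02 and 8.76. Its control hearts were nearly level and all lower, with a log2 fold change of 0.91 ± 0.14 (SE, limma adjusted p = 0.0034).

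The 5 related F-box genes Fbxo2, Fbxo6, Fbxo17, Fbxo27 and Fbxo44, not all of which are known to bind sugars, were set together after their values were seen. Fbxo2 rose by 0.55 on the log2 scale (limma adjusted p = 0.026), but no hSRY-OFF array detected it. It entered the test only through the group where it was higher, and its p-value compares signal with background. Measured against the background, Fbxo2 was at least 1.08-fold higher. It was called in 7 of the 15 alternatives that tested it. Fbxo6 was at 0.22 and did not pass (limma adjusted p = 0.27), and Fbxo17 was not tested. In the RefSeq gene order Fbxo2, Fbxo44 and Fbxo6 are consecutive neighbours, and so are Fbxo17 and Fbxo27.

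Fbxw17 read 9.16, 9.17 and 9.28 in hSRY-OFF and 10.16, 10.05 and 10.16 in hSRY-ON hearts. The groups did not overlap, at 1.90-fold (limma adjusted p = 0.0013). Fbxw8, the adaptor that works with Cul7, rose by 0.57 on the log2 scale. Fbxo36, Fbxl10, Fbxo38 and Fbxl5 rose by 0.83, 0.50, 0.47 and 0.42. Of these, Fbxl10 is the histone demethylase now named Kdm2b, and Fbxl5 is the iron-regulated adaptor of iron regulatory proteins. A second Fbxl10 probe near background was at -0.02 and did not pass. The second Fbxo38 probe, at 0.31, did not pass either (limma adjusted p = 0.32).

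**Figure D3:**
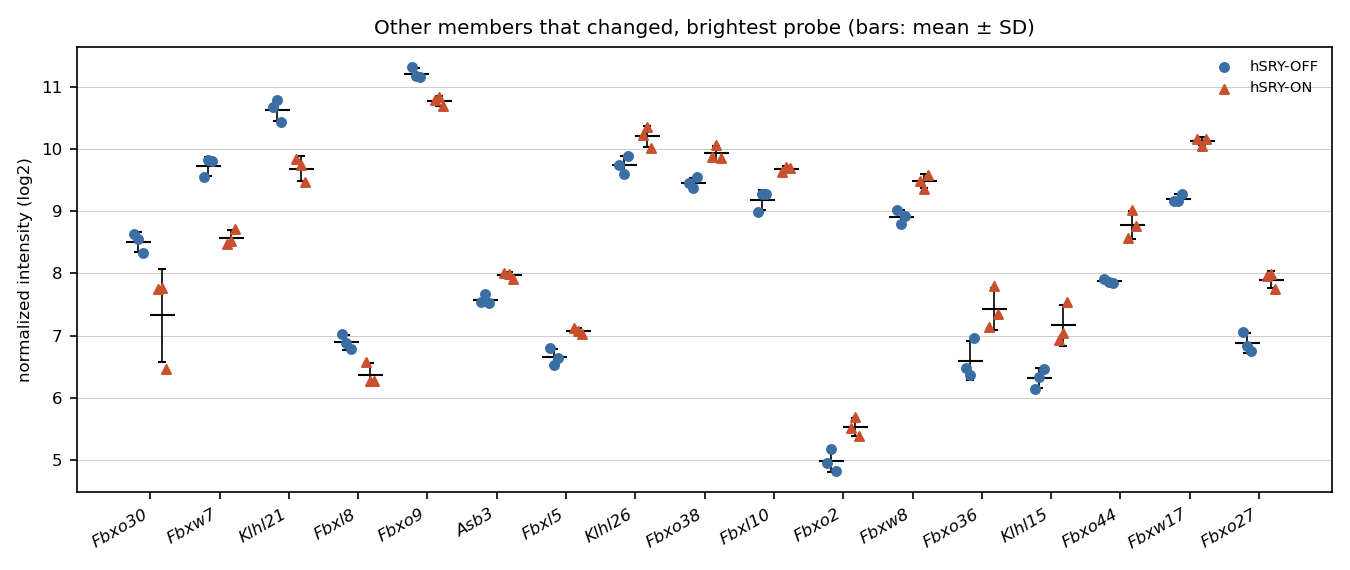
Normalized log2 intensity per heart of the 17 adaptor genes outside the muscle-restricted list whose brightest probe was called (circles, hSRY-OFF; triangles, hSRY-ON; bar and whiskers, mean and SD), ordered from the largest decrease to the largest increase. The wide spread of Fbxo30 in hSRY-ON comes from replicate 3 at 6.46.

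Among the other BTB-Kelch genes, Klhl21, which takes part in chromosome alignment and cytokinesis, read 10.67, 10.78 and 10.44 in hSRY-OFF and 9.84, 9.75 and 9.46 in hSRY-ON hearts. The groups were separate, and the 1.93-fold decrease had a limma adjusted p of 0.0039. Klhl15 rose on both of its probes, by 0.85 and 0.54 on the log2 scale. The brighter read 6.14, 6.33 and 6.46 against 6.93, 7.04 and 7.53, without overlap. Klhl26 rose by 0.46, and Klhl24, a regulator of intermediate filaments, fell on 1 of its 2 probes by 0.47. The remaining 15 genes of this class did not pass on any probe, including the 3 tested Kbtbd genes, whose 5 probes lay between -0.14 and -0.01.

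Klhl6, an adaptor best known from B cells, did not pass the test. It read 10.73, 10.67 and 10.60 in hSRY-OFF and 11.36, 10.57 and 10.62 in hSRY-ON, where the high value is that of replicate 1, also the heart with Scgb1a1 signal. Its log2 fold change was 0.18 (limma adjusted p = 0.56), and without that heart it was -0.07.

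Of the SOCS-box adaptors outside the muscle list, Asb3 rose by 0.39 on its brighter probe, with 7.54, 7.67 and 7.53 in hSRY-OFF against 8.0, 7.99 and 7.91 in hSRY-ON hearts. Its second probe was at -0.03. Asb8 read 11.63, 11.81 and 11.32 against 11.01, 11.15 and 11.25, lower in each hSRY-ON heart, and did not pass (limma adjusted p = 0.067). None of the 6 tested Socs genes, a family of which some members end cytokine signalling through JAK kinases, passed the test. Among them 1 had an unadjusted limma p under 0.05. That gene, Socs3, read 7.26, 7.04 and 7.0 in hSRY-OFF and 7.12, 7.89 and 7.85 in hSRY-ON hearts, so that hSRY-ON replicate 1 lay within the control range.

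The core of the ligases did not pass the test. Of 10 tested cullin, RING and linker genes limma called none, and none had an unadjusted p under 0.05, against a called share of 28.7% of 9653 genes by their brightest probe. The cullins Cul3, Cul4a, Cul4b, Cul5 and Cul7 had log2 fold changes between -0.08 and 0.11, with standard errors of 0.11 to 0.14. Cul1, the scaffold of F-box ligases, was at -0.46 ± 0.23 (SE, limma adjusted p = 0.18), and Cul2 was detected on 1 array and was not tested. The 8 tested subunits of the COP9 signalosome, which strips Nedd8 from cullins, also had no limma call, and 1 of them, Cops2 (0.32), had an unadjusted p under 0.05.

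Neddylation, which switches cullins on by attaching Nedd8, had 4 calls among 10 tested genes, 2 in each direction, against 28.7% of all genes by their brightest probe. Ube2m, an enzyme that passes Nedd8 to cullins, read 11.25, 11.11 and 11.32 in hSRY-OFF and 10.47, 10.36 and 10.58 in hSRY-ON hearts. All hSRY-ON hearts were lower, by 0.76 on the log2 scale (limma adjusted p = 0.0040). Dcun1d2 fell by 0.77, and its relative Dcun1d4 rose by 0.72, both proteins being co-factors of this transfer. Appbp1 (Nae1), a subunit of the Nedd8 activating enzyme, rose by 0.42.

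Among 28 tested adaptors of other families, 6 rose and 2 fell, a share of 28.6% that is near the 28.7% of all genes. Tulp4, a SOCS-box protein, read 10.41, 10.31 and 10.12 in hSRY-OFF and 11.59, 11.66 and 11.29 in hSRY-ON hearts, clear of each other at 2.35-fold (limma adjusted p = 0.0012). Enc1, a Kelch protein, rose 2.08-fold, and Btrc, the F-box adaptor of beta-catenin without an Fbx symbol, rose 1.97-fold. Rhobtb2 and the F-box gene Skp2 fell by 0.87 and 0.62 on the log2 scale.

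**Figure D4:**
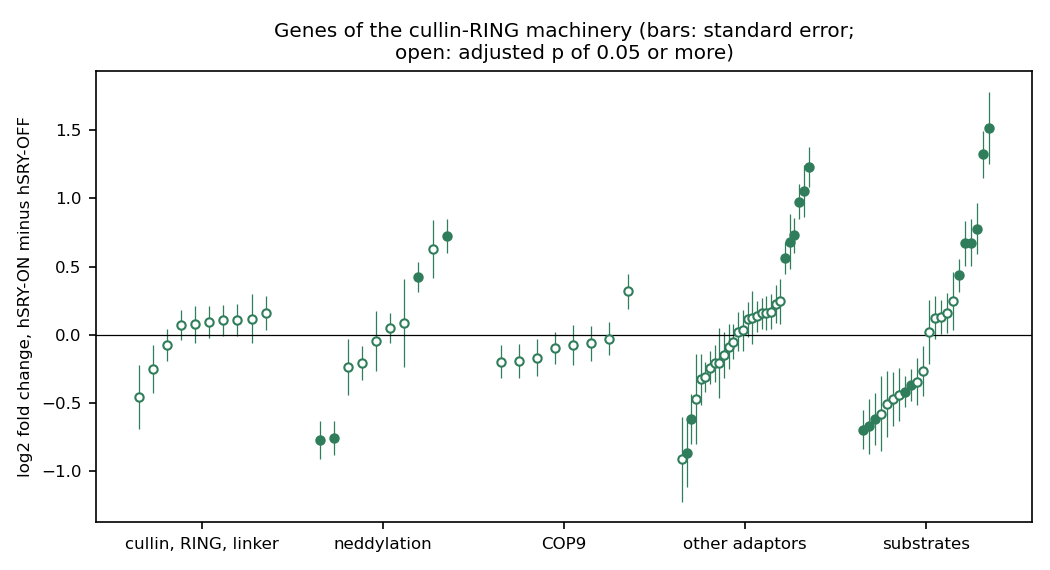
Log2 fold change (hSRY-ON minus hSRY-OFF) with its standard error for the tested genes of 5 lists: cullin, RING and linker genes (10), neddylation (10), COP9 signalosome (8), other adaptors (28) and substrates (22). Filled points had an adjusted p under 0.05; the cullin and COP9 columns hold open points only, and the substrates spread from -0.70 to 1.52.

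Transcripts of 22 proteins known as substrates of cullin-RING adaptors were tested, and 6 rose and 5 fell, or 50% against 28.7% of all genes. Some of them are targets of adaptors outside the rule, such as beta-catenin (Ctnnb1), a target of Btrc. The count of 11 dropped to 3 without normalization between arrays, to 4 without hSRY-OFF replicate 1 and to 5 to 7 without 4 of the other hearts. Wnk4, a kinase degraded through the Kelch adaptor Klhl3, rose by 1.52 on the log2 scale from 5.85, 4.97 and 5.48 to 7.07, 7.24 and 6.54, with detection on 1 hSRY-OFF and all 3 hSRY-ON arrays, and by 0.55 without background correction. Wnk1, its relative and also a target of Klhl3, fell by 0.62 (limma adjusted p = 0.048), a call held in 8 of 17 alternatives. Snai1, a transcription factor degraded through F-box adaptors, rose 2.50-fold (limma adjusted p = 0.0016). Of the Fbxw7 substrates, Myc was detected in no hSRY-OFF heart and was at least 1.31-fold higher in hSRY-ON hearts, whereas Jun, Notch1, Mcl1 and Ccne1 did not pass. Nrap, a muscle scaffold protein, fell by 0.70 and Ccnd1 (cyclin D1) by 0.67. These are transcript levels, and protein levels were not analysed here.

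The calls differed in how well they held over 17 alternative settings, which vary the background correction, the scaling, the probe filter, the variance model and the hearts included. All 27 called adaptor probes kept their direction in each alternative that tested them, and 11 also kept an adjusted p under 0.05. These 11 were 6 of the muscle-restricted list (Asb10, Asb12, Fbxl22, Fbxo40, Asb2 and Klhl31) and 5 others (Fbxw7, Klhl21, Fbxw17, Fbxo27 and the called probe of Fbxl12). A further 5 probes lost the call in 1 to 4 settings, among them Klhl30, Fbxo44 and Fbxw8, which lost it without normalization between arrays and in no other setting. The other 11, among them Asb3, Fbxl5, Fbxl8, Fbxl10, Fbxo9, Fbxo36, Fbxo38, Klhl24 and Klhl26, lost it in 5 or more. In the plot of these settings the Asb10 change ranged from -4.10 to -2.08, the smallest value being without background correction.

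**Figure D5:**
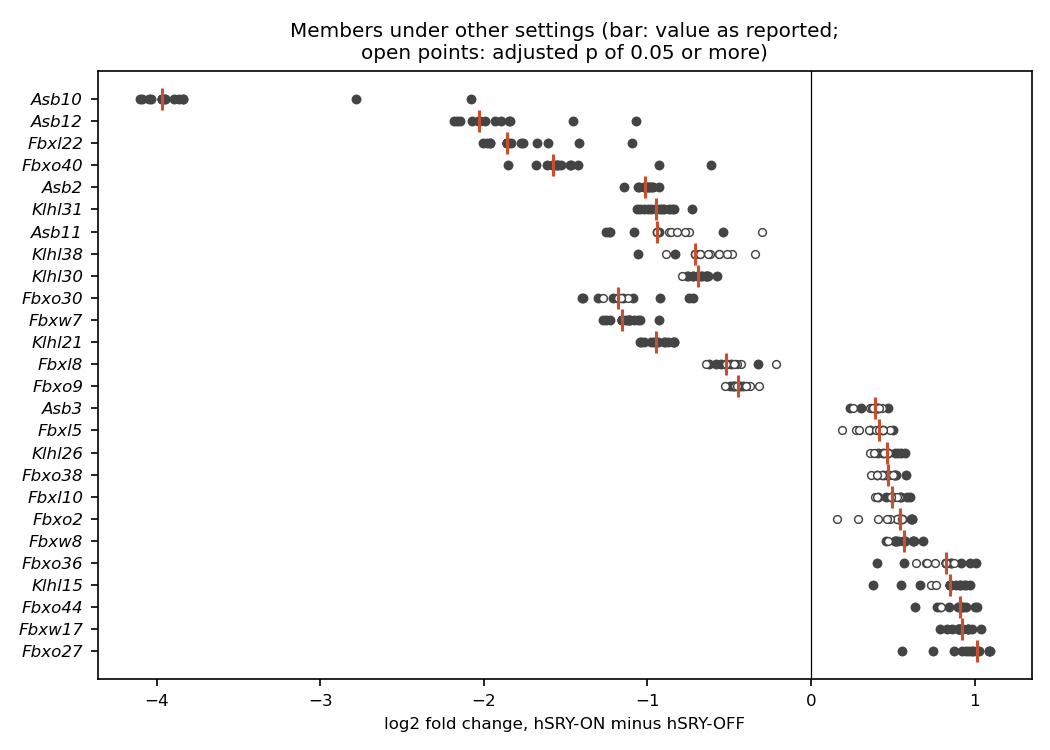
Log2 fold change (hSRY-ON minus hSRY-OFF) of the brightest probe of 26 adaptor genes, as reported (red bar) and under each alternative (points; filled where the adjusted p was under 0.05). Rows run through the muscle-restricted genes and then the others by their change; Asb10, Asb12, Fbxl22, Fbxo40 and Asb2 hold filled points only.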

How the data were processed

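RNA of 6 hearts was measured on 1 array each. The authors deposited, for each of 25697 probes, the bead intensity on a linear scale without normalization, and a detection p-value against the array's negative-control beads. Software used before deposit for bead summary is not given in the sources used here, and the submitters' processing notes name limma without a version.

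Here, limma 3.58.1 (R 4.3.3) corrected the background with neqc (offset 16), quantile normalized the arrays and took log2. Probes detected at p under 0.05 by 3 or more of 6 arrays entered lmFit and eBayes, with group alone in the design, and two-sided p-values were adjusted by Benjamini-Hochberg over all 12970. Plots used matplotlib 3.10.9 under Python 3.11.15. The fit was tested on simulated data. Depth on an array is its signal over background, and between 47.2% and 51.3% of probes were detected on each. With 3 hearts a group, array number limits precision; an exact permutation test could not go below 0.1. No 2 arrays were identical. The study calls its samples biological triplicates.

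Genes were named by rule: each muscle-restricted gene with a probe, the 3 largest called increases and decreases per family without overlap of the groups, the 2 largest in each direction per partner list, every cullin, and genes whose probes differ in call. Fbxo2, Fbxo6, Asb8, Socs3, Klhl6, Btrc, Cops2, Myc, Wnk1, the markers and the uncalled substrates were named after their values were seen. A gene is given by its brightest probe unless said otherwise. The members, lists and motifs were chosen with earlier results of these data known. A change against a group in which no array detected the probe is given as a lower bound, in which the dim group is set at the lowest detected signal of each array. The alternatives were no background correction, normexp with an offset of 50, no normalization, scaling to the median of detected probes or on probes not called, no probe filter, detection on all 6 arrays or at 0.01, an intensity trend, array weights, a replicate block, and leaving out each heart. Promoter windows were from RefSeq. Listed muscle genes without a matching symbol (Asb14, Klhl40, Klhl41, Kbtbd12 and Kbtbd13) were not analysed here.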

Additional observations from a re-analysis of the deposited data

How the results depend on the processing

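Of 238 summary values recomputed under the 17 alternatives, 201 kept within 1.5 times of the main count or, for medians, within 1 SD of replicates, and no called single-gene value changed sign. Muscle-restricted calls ranged from 6 to 10, all lower in hSRY-ON. Their median (main -0.95) was -0.63 without background correction, -1.30 with detection at 0.01, which tests 8 probes, and -0.79 without a probe filter, which tests all 16. Without normalization between arrays 14 adaptor probes were called (main 27), with 6 other adaptors (20), 7 F-box (16), 3 Klhl and Kbtbd (7), 2 neddylation (4), 5 other-family adaptors (8) and 3 substrates (11). That setting moved the median of all probes to -0.12. Substrate calls were 7 with median scaling, 6 with scaling on uncalled probes and 7 with the replicate block. Calls of other-family adaptors were 5 without the probe filter. The COP9 list had 1 call without background correction and 1 with an intensity trend, and the cullin list 1 with array weights. The cause of these shifts was not tested. Scaling to the median turned the split of called adaptors outside the muscle list to 14 higher and 4 lower (main 13 and 7).

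Leaving out 1 heart at a time gave 14 to 28 adaptor calls, 7 to 9 muscle-restricted, 7 to 19 of the others, 8 to 14 F-box, 3 to 8 Klhl and Kbtbd, 0 to 1 Socs, 0 to 1 cullin, 5 to 7 other-family adaptors and 4 to 11 substrates. The lowest counts came without hSRY-OFF replicate 1. Deviations of same-numbered replicates correlated at -0.025, 0.038 and -0.066, and those of the other replicate pairs at -0.063 to 0.093. Such correlations cannot show whether hearts of the 2 groups were littermates, and the study names no pairs. With the replicate block 13 other adaptors and 7 muscle-restricted probes were called. Slides or scans as a block were not run, since the data name none. For the 21 genes with over 1 tested probe, the mean over probes kept the sign of the brightest in all 21. Signal over background limits the dim probes, such as Fbxo2 and Asb11.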
